A study of Mus musculus with 16 samples.

Results

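The expression of 10 immediate-early and growth-response transcription factor genes was followed across 4 genotypes of mouse mammary organoids: Fos, Fosb, Fosl1, Fosl2, Jun, Junb, Jund, Egr1, Atf3 and Myc. They were chosen by name, and all 10 were found by symbol among the 55487 gene identifiers of the count table. Organoids are small bodies of many cells that tissue cells form in culture. Wild type organoids (WT, n = 3) came from normal breast. The others came from breast tumor and carried the PIK3CA mutation alone (n = 4), the HER2 mutation alone (n = 4) or both mutations (double mutants, n = 5). The series title gives the alleles as HER2 V777L and PIK3CA H1047R. PIK3CA encodes the catalytic subunit of a PI3 kinase and HER2, the product of Erbb2, is a receptor tyrosine kinase of the EGF receptor family. All organoids were grown with murine epidermal growth factor (EGF), B27, N-acetyl-cysteine and medium conditioned with Rspo1 and Noggin. EGF itself acts on immediate-early genes, and the time between feeding and harvest is not given in the sources used here. How the mutations were introduced, the driver of any transgene and the ages of the mice are likewise not given there. Genotype and tissue source were one split in every comparison with WT and cannot be told apart. Nothing in the labels says that samples of a group came from separate animals, so p-values measure only the spread between these samples.

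Immediate-early genes are transcribed within minutes of a growth-factor or stress signal, without new protein synthesis, and their mRNAs are short-lived. The Fos family (Fos, Fosb, Fosl1, Fosl2) and the Jun family (Jun, Junb, Jund) encode bZIP proteins that pair through a leucine zipper to form AP-1, which binds TGACTCA-like sites. EGR1 is a zinc-finger factor switched on through the ERK pathway, MYC pairs with MAX at E-boxes and drives growth and ribosome synthesis genes, and ATF3 is a bZIP factor of the stress response. In mammary epithelium, AP-1 and MYC act downstream of receptor tyrosine kinases such as HER2.

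Libraries held 45545182 to 64168308 counts. Erbb2 was at 145 to 188 CPM (counts relative to library size after TMM scaling) in the 7 samples without the HER2 mutation, at 2696 to 4632 CPM in HER2 mutants and at 1499 to 2751 CPM in double mutants. Epithelial genes were well expressed in each library. Luminal markers (7 genes) summed to 2230.3 to 2445 CPM in WT, 3242 to 3806 in PIK3CA mutants, 2094 to 3096 in HER2 mutants and 3056 to 5116 in double mutants. Basal markers (7 genes) summed to 470.2 to 1011 CPM in WT, 498 to 1368 in PIK3CA mutants, 553 to 1018 in double mutants and 259 to 971 in HER2 mutants, of which 3 of 4 were at 259 to 381 CPM, below every other sample. Immune markers (9 genes) summed to 524 to 3265 CPM in WT and to 9.31 to 207 CPM in the mutants, and fibroblast markers (6 genes) to 325 to 1899 CPM in WT and 26.2 to 624 CPM in the mutants. Endothelial and adipocyte markers reached at most 4.15 CPM in sum, and no marker was at 0 counts throughout a group. Immune and fibroblast markers moved with every comparison with WT below. Luminal markers were higher in every PIK3CA and every double mutant than in any WT sample. They were also higher in every PIK3CA than in any HER2 mutant. Basal markers moved with the comparisons of HER2 mutants, through 3 of 4 samples. The part of all these markers in the results was not tested. In bulk samples, fewer cells of a type and less RNA per cell cannot be told apart. Double mutants 2 and 3 stood apart from the other 3 of their genotype: on the second principal component (14.7% of variance) they lay at 35.6 and 10.9, the others between -47.8 and -33.6. They also had the highest sums of 13 heat-shock genes, at 4196 and 3431 CPM against 2649 to 3042 CPM in the other 3. Differences between genotypes that rest on these 2 samples are given with and without them, but correlations only with them.

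Few of the 10 genes differed between genotypes, and Egr1 and Myc differed in opposite ways between the single mutants. Egr1 rose in PIK3CA mutants, Myc rose in HER2 and in double mutants, and Fosl1 rose in double mutants, each against WT. Fos, Fosb, Jun and Junb passed the test in none of the 7 comparisons. All 10 genes passed the filter on low counts, and a gene was called at an adjusted p under 0.05 over the 24252 genes tested (edgeR's quasi-likelihood test, two-sided, Benjamini-Hochberg). Against WT, 1 of 10 was called in PIK3CA mutants (4.52% of all genes), 1 of 10 in HER2 mutants (10.4% of all genes) and 2 of 10 in double mutants (11.8% of all genes). Between HER2 and PIK3CA mutants 2 of 10 were called, with 4.41% of all genes. None of the 10 was called between double and HER2 mutants, with 2.5% of all genes. There 0 of 10 had an unadjusted p under 0.05, beside 17.8% of all genes. None was called between double and PIK3CA mutants, with 0.672% of all genes. There 4 of 10 had an unadjusted p under 0.05, beside 12.4% of all genes. The interaction asks whether the double mutant departs from the sum of both single-mutant log2 changes. Because WT enters it, the interaction also carries the split of tissue source between WT and mutants, which cannot be told apart from genotype. It was called for 0 of 10 and for 1.06% of all genes. In it 3 of 10 had an unadjusted p under 0.05, beside 13.6% of all genes. Single calls among 10 genes are near these background shares, so the counts say little about the set as a whole. The median log2 fold change of the 10 against WT was 0.38 in PIK3CA mutants, 0.30 in HER2 mutants and 0.45 in double mutants, beside -0.03, 0.03 and 0.01 over all genes. The last of these rests on double mutants 2 and 3: without them the median of the 10 was -0.07 in double mutants against WT, beside -0.02 over all genes. The comparisons with WT share the same 3 samples.

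**Figure D1:**
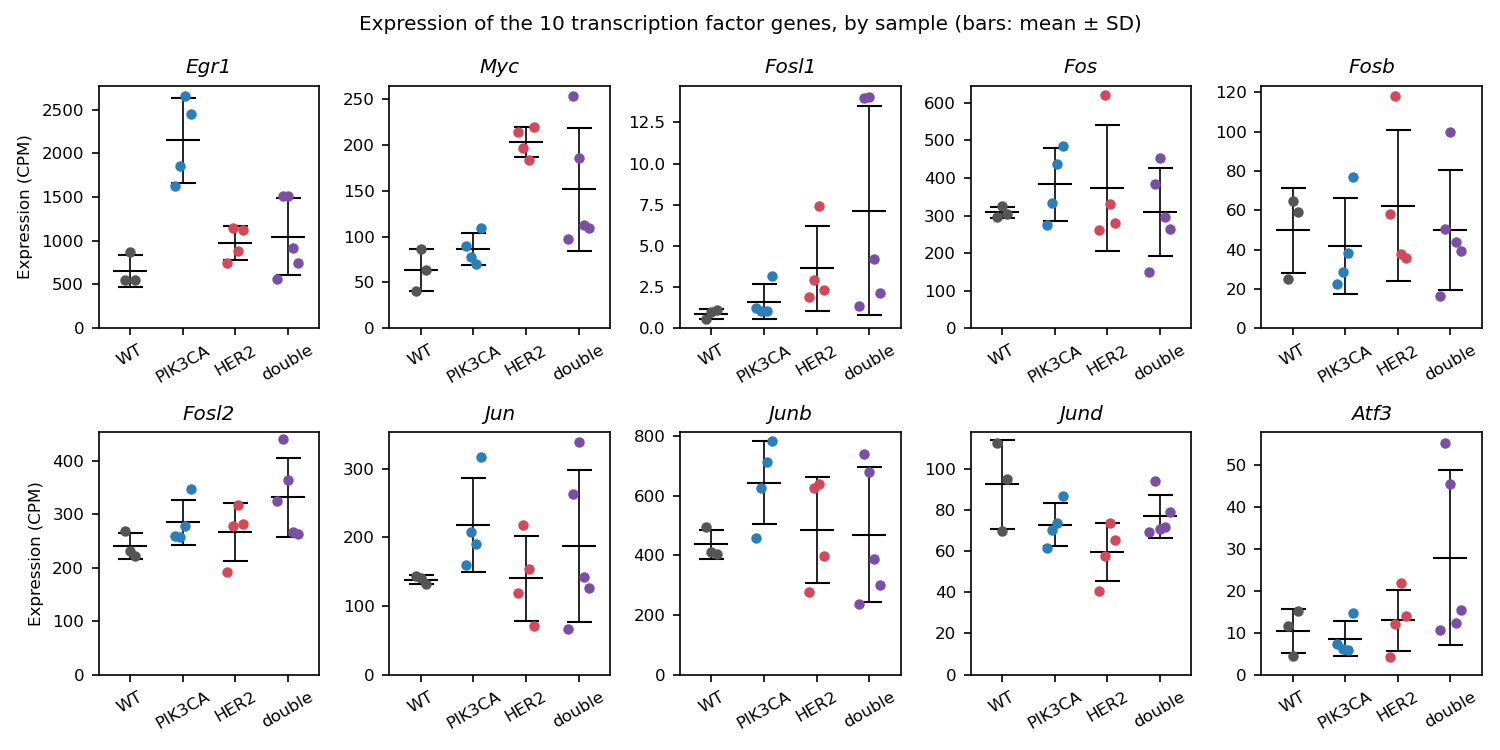
Expression in CPM (vertical axes, from 0) of each of the 10 genes in WT, PIK3CA mutant, HER2 mutant and double mutant organoids; points are samples and bars mean ± SD. Egr1 is highest in the 4 PIK3CA mutants (1625 to 2662 CPM), Myc in the 4 HER2 mutants and double mutants 2 and 3, and Fosl1 and Atf3 in double mutants 2 and 3.

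**Figure D2:**
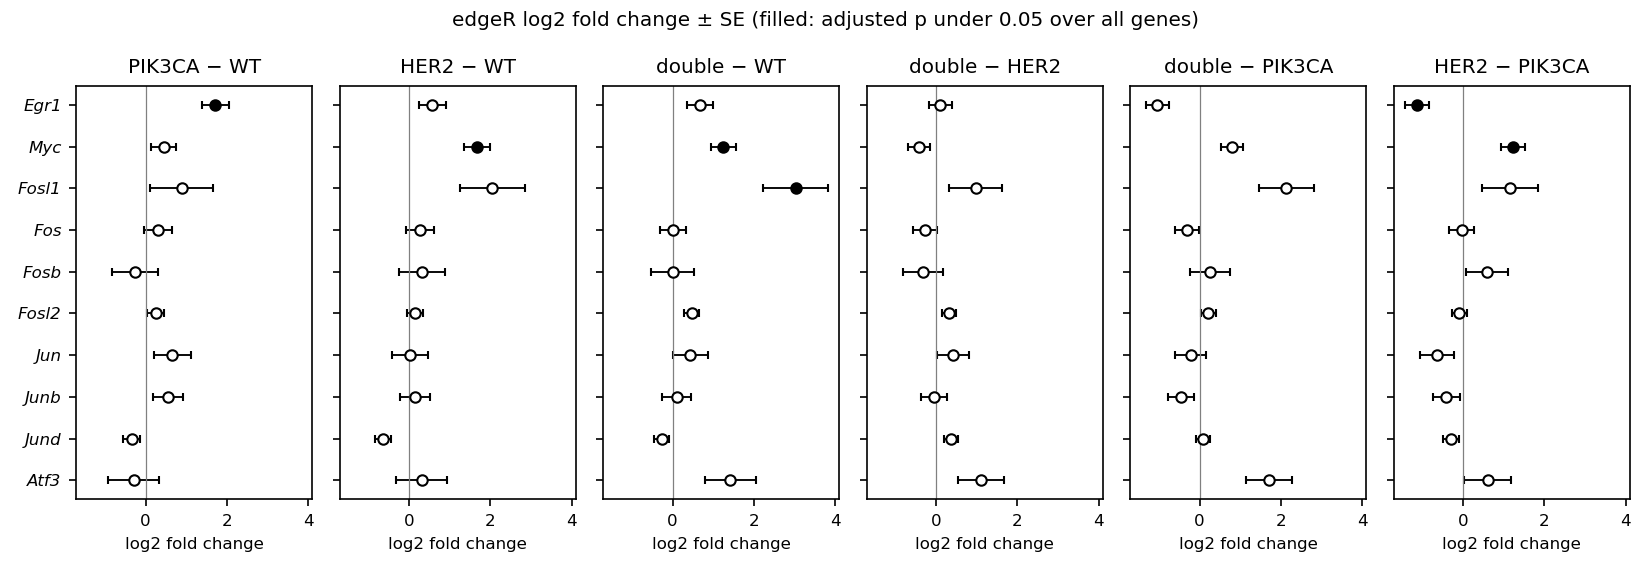
Log2 fold change (horizontal axes, ± SE) of the 10 genes in each comparison, filled where the adjusted p over all genes is under 0.05. Filled points are Egr1 in PIK3CA mutants against WT, Myc in HER2 mutants against WT and PIK3CA mutants, Egr1 lower in HER2 than in PIK3CA mutants, and Myc and Fosl1 in double mutants against WT.

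Egr1, which encodes the ERK-responsive zinc-finger factor, was at 549.8, 869 and 546 CPM in WT replicates 1 to 3. In PIK3CA mutants it was at 1625, 1861, 2662 and 2447 CPM. All 4 PIK3CA mutants lay above each of the other 12 samples. Egr1 rose 3.28-fold over WT there (log2 fold change 1.71, SE 0.34, adjusted p = 0.00705). HER2 mutants were at 742, 1146, 885 and 1129 CPM, and overlapped WT. Double mutants were at 559, 1514, 1507, 912 and 749 CPM, which overlaps the WT and HER2 mutant ranges and stays below the PIK3CA range. Egr1 was 2.20-fold lower in HER2 than in PIK3CA mutants (log2 fold change -1.14, SE 0.30, adjusted p = 0.0427). Against PIK3CA mutants the double mutants had a log2 fold change of -1.04 (SE 0.28), which missed the threshold after adjustment (adjusted p = 0.117), although no samples overlapped. The interaction of -1.61 (SE 0.43) also missed it (adjusted p = 0.0861). Both passed without double mutants 2 and 3: the difference from PIK3CA mutants was -1.54 (adjusted p = 0.0186) and the interaction -2.11 (adjusted p = 0.00797). The order of mean levels was PIK3CA mutant (2149 ± 486 CPM, SD, n = 4), double mutant (1048 ± 440.2, n = 5), HER2 mutant (975 ± 196, n = 4) and WT (655 ± 186, n = 3), of which the last 3 overlapped their neighbours. The rise over WT was not called without WT replicate 3 (adjusted p = 0.0613), and the HER2 against PIK3CA call was lost in 7 of 8 fits that left out one sample of either genotype.

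Of the EGR1 co-repressors Nab1 and Nab2, which bind EGR proteins and are themselves EGR targets, Nab2 was lower in HER2 than in PIK3CA mutants (30.2 to 38.7 against 49.8 to 64.9 CPM, log2 fold change -0.74, adjusted p = 0.00507), as Egr1 was. Neither co-repressor was called in the other 6 comparisons. Of 37 other immediate-early genes tested, 4 rose and 0 fell in PIK3CA mutants against WT (Arc, Nfkbia, Per1 and Trib1), which is 10.8% beside the 4.52% of all genes, with a median log2 fold change of 0.08. Arc, a cytoskeletal immediate-early gene best known from neurons, was at 7.36 to 16.9 CPM in WT and 45.5 to 85.7 CPM in PIK3CA mutants (log2 fold change 2.42, SE 0.65, adjusted p = 0.0459). Per1, a clock gene, was at 85.4 to 107 CPM in WT and 215 to 308 CPM in PIK3CA mutants (log2 fold change 1.49, SE 0.38, adjusted p = 0.0337). In HER2 mutants against WT 2 rose (Nr4a1 and Per1) and 1 fell (Egr3), which is 8.11% beside 10.4% of all genes, with a median of 0.26. Egr3, a relative of Egr1, thus fell where Egr1 itself was not called: it was at 84.5 to 116 CPM in WT and 12.4 to 52.3 CPM in HER2 mutants. Every PIK3CA mutant (42.6 to 70.8 CPM), where Egr1 rose, also lay below every WT sample for Egr3. So did every double mutant (32.0 to 72.8 CPM). Neither difference was called (edgeR, adjusted p = 0.319 and 0.0840). In double mutants against WT 5 rose (Arc, Btg2, Nfkbia, Nr4a1 and Per1) and 0 fell, which is 13.5% beside 11.8% of all genes, with a median of 0.49. The count was 4 and the median -0.11 without double mutants 2 and 3, where 9.01% of all genes were called. Nr4a1, an orphan nuclear receptor, was at 13.3 to 20.5 CPM in WT, 37.6 to 281 CPM in HER2 mutants (log2 fold change 2.82, SE 0.56, adjusted p = 0.00592) and 39.0 to 90.3 CPM in double mutants (log2 fold change 1.88, SE 0.52, adjusted p = 0.0275).

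Of 19 genes upstream of the immediate-early genes (ETS and MRTF cofactors of serum response factor, MAP kinases and the kinases around them), 0 rose in any comparison. Mrtfb, a cofactor of serum response factor, was lower with the HER2 mutation. It was at 282 to 323 CPM in WT and 259 to 362 CPM in PIK3CA mutants, against 149 to 183 CPM in HER2 mutants and 130.3 to 202 CPM in double mutants, with no overlap. Its log2 fold change was -0.91 (SE 0.16, adjusted p = 0.00288) in HER2 mutants and -0.86 (SE 0.15, adjusted p = 0.00166) in double mutants against WT. The only other call in this list was Mapk10, lower in HER2 mutants against WT.

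Myc, on chromosome 15 (61985391 to 61990374 in GRCm38, plus strand), was at 41.0, 86.8 and 63.4 CPM in WT and at 89.8, 77.7, 69.9 and 109.7 CPM in PIK3CA mutants, which overlapped. HER2 mutants were at 214, 197, 184 and 219 CPM, a narrow range above every WT and PIK3CA mutant sample. Myc rose 3.19-fold in HER2 mutants over WT (log2 fold change 1.67, SE 0.32, adjusted p = 0.00504), a call kept in all 7 fits that left out one WT or HER2 mutant sample and under the 9 other alternatives tried. It was 2.34-fold higher in HER2 than in PIK3CA mutants (log2 fold change 1.23, SE 0.29, adjusted p = 0.0254), a call lost without PIK3CA mutant 1, 2 or 3 (adjusted p up to 0.0849). Double mutants were at 97.5, 254, 186, 112 and 109 CPM. Replicates 2 and 3 lay in or above the HER2 range, and the other 3 between the WT and HER2 ranges, close to the highest PIK3CA mutant. Over all 5, Myc rose 2.38-fold against WT (log2 fold change 1.25, SE 0.31, adjusted p = 0.0148). That call was lost without WT replicate 1 (adjusted p = 0.0890) or WT replicate 3 (adjusted p = 0.0727), and with only the genotypes compared in the fit (adjusted p = 0.0505). With double mutants 2 and 3 left out the difference was 0.74 and no longer passed (adjusted p = 0.0581), while Myc then fell short of its HER2 mutant level in the double mutants (difference of -0.94 on the log2 scale, adjusted p = 0.0284) and the interaction was -1.38 (adjusted p = 0.0243). With all 5, neither of these passed: the interaction was -0.87 (SE 0.41, adjusted p = 0.368). Against PIK3CA mutants the double mutants had a log2 fold change of 0.80 (SE 0.27, adjusted p = 0.221).

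Some textbook MYC target genes rose in HER2 and double mutants. Of 26 tested, 4 rose in HER2 mutants against WT (Ldha, Nolc1, Odc1 and Srm; median log2 fold change 0.26) and 6 in double mutants (Eif4e, Ldha, Nolc1, Npm1, Ppan and Srm; median 0.30), with 0 lower in either. Those shares were 15.4% and 23.1%, beside the 10.4% and 11.8% of all genes. Leaving out double mutants 2 and 3 also gave 6 higher and 0 lower, with a median of 0.35, where 9.01% of all genes were called. In PIK3CA mutants 1 rose (Ldha) and 1 fell (Odc1), which is 7.69% beside 4.52% of all genes, with a median of -0.10. Odc1, ornithine decarboxylase of polyamine synthesis, was at 48.4 to 54.1 CPM in WT, 22.9 to 27.5 CPM in PIK3CA mutants, 60.6 to 106 CPM in HER2 mutants and 36.7 to 46.8 CPM in double mutants, with no overlap between any of the 4 ranges. It fell against WT in PIK3CA mutants (log2 fold change -1.01, SE 0.16, adjusted p = 0.00161), rose in HER2 mutants (0.73, SE 0.16, adjusted p = 0.0107) and was not called in double mutants (-0.27, SE 0.15, adjusted p = 0.267), where Myc was. Its interaction was 0.01 (SE 0.21, adjusted p = 0.993). Srm, spermidine synthase of the same pathway, rose in HER2 mutants (log2 fold change 1.02, SE 0.25, adjusted p = 0.0184) and double mutants (1.28, SE 0.24, adjusted p = 0.00316) against WT. Ldha, lactate dehydrogenase A, rose in all 3 mutants against WT, by 1.41 in PIK3CA mutants, 1.08 in HER2 mutants and 1.46 in double mutants (log2 fold change). Of 12 MYC partners and antagonists, Mxd1, which competes with MYC for MAX, rose in PIK3CA mutants (1.17, SE 0.24, adjusted p = 0.00932) and HER2 mutants (1.01, SE 0.24, adjusted p = 0.0152), from 14.7 to 17.3 CPM in WT to 30.6 to 43.96 and 25.8 to 34.8 CPM. In double mutants it was at 18.3 to 38.2 CPM and was not called against WT, and its interaction was -1.49 (SE 0.31, adjusted p = 0.0331).

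**Figure D3:**
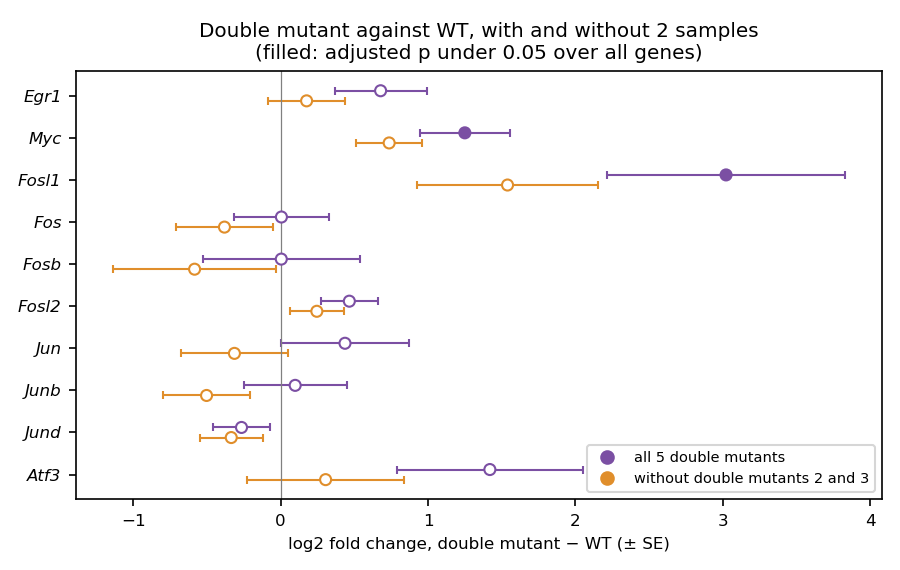
Log2 fold change of each gene in double mutants against WT (horizontal axis, ± SE), from all 5 double mutants and without replicates 2 and 3, filled where the adjusted p over all genes is under 0.05. Myc moves from 1.25 to 0.74 and Fosl1 from 3.02 to 1.54, and neither is filled without the 2 samples.

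In the Fos family, Fosl1 differed by genotype and the others did not pass the test. Fosl1 encodes FRA-1, a FOS protein without the C-terminal activation domain of FOS. It was the least abundant of the 10 genes in WT, with 31 to 66 counts per library. WT was at 0.542, 0.981 and 1.10 CPM, PIK3CA mutants at 1.19, 1.05, 1.04 and 3.18 CPM, and HER2 mutants at 1.87, 2.91, 7.43 and 2.31 CPM. All HER2 mutants lay above all WT samples, but the difference was not called (log2 fold change 2.05, SE 0.79, adjusted p = 0.113). Double mutants were at 1.3, 13.95, 14.04, 4.19 and 2.12 CPM. Fosl1 rose 8.13-fold in double mutants over WT (log2 fold change 3.02, SE 0.81, adjusted p = 0.0236), with every double mutant above every WT sample. The size rests on replicates 2 and 3: without them the log2 fold change was 1.54 (SE 0.61, adjusted p = 0.145). The call was also lost without any one WT sample (adjusted p up to 0.111). On chromosome 19, Fosl1 (5447547 to 5455946 in GRCm38, plus strand) overlaps Ccdc85b on the minus strand. The counting's strand setting is not given in the sources used here, so reads there could belong to either gene. Ccdc85b had a log2 fold change of 0.13 (adjusted p = 0.818) in the same comparison, and the part of shared reads was not tested.

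Fos, the founding member, was at 295, 324 and 305 CPM in WT, a tight range that every mutant genotype spanned. PIK3CA mutants were at 274, 333, 437 and 486 CPM, HER2 mutants at 262, 621, 329.6 and 279 CPM, and double mutants at 149, 383, 454, 297 and 263 CPM. Its lowest adjusted p over the 7 comparisons was 0.634. Fosb, a close paralog, was at 25.1, 64.9 and 59.2 CPM in WT, 22.6, 28.4, 38.4 and 77.1 CPM in PIK3CA mutants, 58.0, 118, 37.7 and 35.8 CPM in HER2 mutants and 16.5, 50.5, 99.6, 43.8 and 39.3 CPM in double mutants. All 4 ranges of Fosb overlapped, and its lowest adjusted p was 0.590. Fosl2, which encodes FRA-2, was steadier, at 268, 232 and 221 CPM in WT, 259.8, 256, 277 and 346 CPM in PIK3CA mutants, 191, 278, 317 and 281 CPM in HER2 mutants and 324, 440.0, 365, 267 and 263 CPM in double mutants. Double mutants 1 to 3 lay above all WT and HER2 mutant samples, yet the difference from WT was not called (log2 fold change 0.47, SE 0.19, adjusted p = 0.130). An offset for GC content and length made this difference 0.76 and a call (adjusted p = 0.0214).

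Per kilobase of exon, which allows levels of different genes to be compared, Fos made up most of the Fos family: 79.8% of the summed CPM per kb in WT, 81.4% in PIK3CA mutants, 79.2% in HER2 mutants and 73.3% in double mutants on average. Fosl2 followed with means of 15.2%, 15.1%, 15.0% and 20.8%, Fosb with 4.81%, 3.17%, 4.91% and 4.23%, and Fosl1 with 0.261%, 0.385%, 0.961% and 1.69%. Fosl1 thus stayed a minor part of Fos family mRNA even in double mutants 2 and 3, at 3.07% and 2.72%. Double mutant 1 had the lowest Fos share, 63.3%, and the highest Fosl2 share, 33.4%. No test was run on these shares.

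No Jun family gene was called in any comparison. Jun, the main partner of FOS in AP-1, was at 143, 141 and 132 CPM in WT and at 160.0, 207, 190.2 and 318 CPM in PIK3CA mutants, which all lay above WT. HER2 mutants were at 119, 218, 155 and 71.3 CPM and double mutants at 66.3, 264, 339, 142 and 126 CPM, on both sides of WT. Its lowest adjusted p over the 7 comparisons was 0.434. Junb, which pairs with FOS but activates less strongly than JUN, was at 493.4, 413 and 406 CPM in WT, 457, 626, 712 and 782 CPM in PIK3CA mutants, 277, 626, 638 and 397 CPM in HER2 mutants and 237, 738, 678, 387 and 301 CPM in double mutants, with a lowest adjusted p of 0.496. For Junb the range inside each mutant genotype was wider than the distance between any 2 genotype means. Jund, the Jun family gene whose expression is least tied to growth signals, was at 112, 69.6 and 95.1 CPM in WT, 61.5, 69.9, 73.4 and 86.5 in PIK3CA mutants, 40.7, 57.5, 73.8 and 65.2 in HER2 mutants and 69.2, 94.1, 70.5, 71.4 and 79.0 in double mutants. HER2 mutants overlapped WT only through WT replicate 2, and their difference was just short of the threshold (log2 fold change -0.64, SE 0.20, adjusted p = 0.0523). It passed without WT replicate 2 or HER2 mutant 3 (lowest adjusted p 0.0313). Per kb, Junb made up 65.8% of the Jun family in WT, 71.3% in PIK3CA mutants, 71.8% in HER2 mutants and 64.9% in double mutants, and Jund 19.0%, 11.3%, 12.8% and 17.1%. Junb overlaps Prdx2, Jun overlaps Junos and Jund overlaps Gm11175, each on the opposite strand, as a small RNA gene (Gm24748) does Atf3, so their counts may hold reads of both. Junos was lower in double mutants (6.67 to 14.9 CPM) than in WT (17.3 to 23.4 CPM, log2 fold change -0.99, adjusted p = 0.0340) and than in PIK3CA mutants (19.1 to 27.1 CPM, log2 fold change -1.22, adjusted p = 0.0499), and Prdx2 was called in no comparison.

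**Figure D4:**
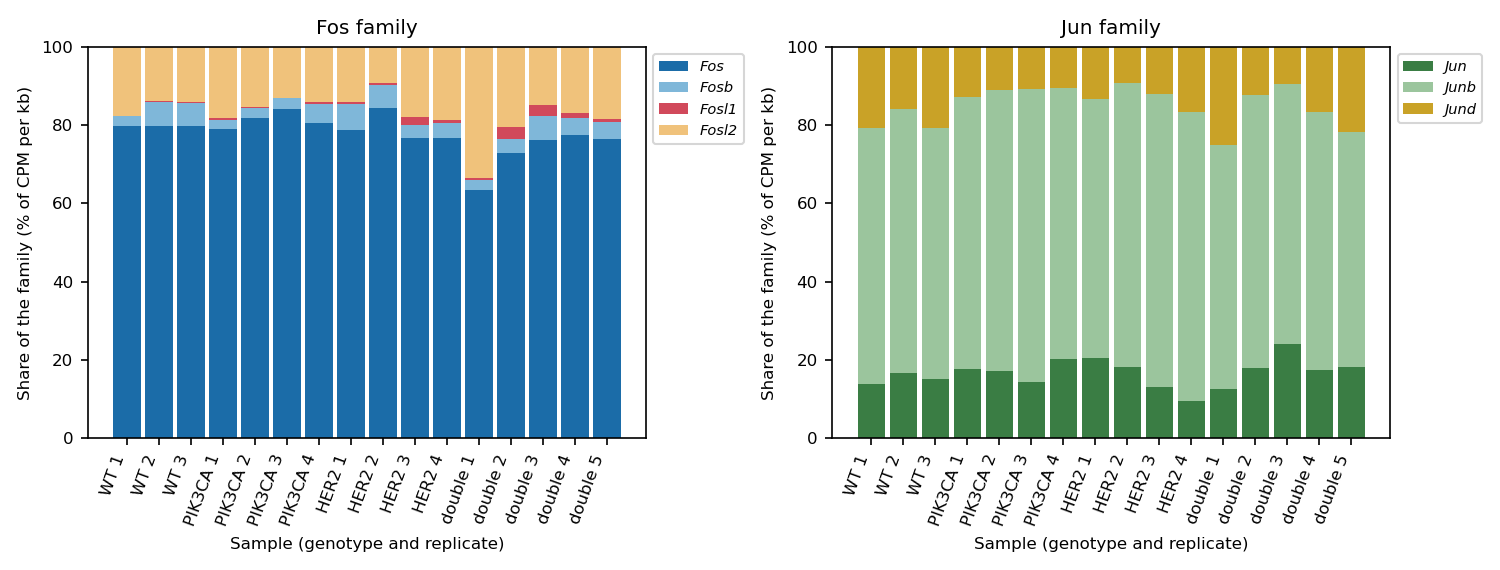
Share of each gene in the summed CPM per kb of the Fos family and of the Jun family (vertical axes, 0 to 100%), 1 bar per sample. Fos takes 63.3% to 84.3% of its family and Junb 60.1% to 74.9% of its family in all 16 samples.

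Across the 16 samples, Fos, Jun and Junb varied together: Pearson's r of log2 CPM was 0.82 for Fos and Jun, 0.84 for Fos and Junb and 0.84 for Jun and Junb. Fosl1 followed Atf3 (r = 0.80) and Myc (r = 0.78) more than Fos (r = 0.36), and Jund ran against Myc (r = -0.50). These are descriptions over samples that share genotypes and library scaling. Double mutants 2 and 3 had the highest levels of Fosl1 and Atf3 of all 16 samples, and r was not computed without them. The 250 bases upstream of the RefSeq start of Fos, Jun and Junb, which moved together, and of Atf3 are shown for the sequences by which such genes are read (RefSeq, GRCm38.p6, each 5′ to 3′ on the gene's strand). Capitals mark matches on either strand to TGACG, TGACATCA or TATAAA. Here TGACG is the start of the cyclic AMP response element TGACGTCA, TGACATCA is the AP-1-like form known from Jun, and TATAAA is a TATA box. The windows are chr12:85473640-85473889 (plus strand) for Fos, chr4:95052223-95052472 (minus strand) for Jun, chr8:84978749-84978998 (minus strand) for Junb and chr1:191183334-191183583 (minus strand) for Atf3.
Fos: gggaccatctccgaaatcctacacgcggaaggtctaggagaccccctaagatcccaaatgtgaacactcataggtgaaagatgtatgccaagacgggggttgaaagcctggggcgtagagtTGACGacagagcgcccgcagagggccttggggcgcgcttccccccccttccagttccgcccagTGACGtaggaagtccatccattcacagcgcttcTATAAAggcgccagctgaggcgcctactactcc
Jun: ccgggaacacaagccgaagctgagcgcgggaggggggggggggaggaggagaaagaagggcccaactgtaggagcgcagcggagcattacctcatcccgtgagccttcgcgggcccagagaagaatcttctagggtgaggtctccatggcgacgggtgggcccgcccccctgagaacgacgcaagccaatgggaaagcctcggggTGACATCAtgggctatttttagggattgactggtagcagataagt
Junb: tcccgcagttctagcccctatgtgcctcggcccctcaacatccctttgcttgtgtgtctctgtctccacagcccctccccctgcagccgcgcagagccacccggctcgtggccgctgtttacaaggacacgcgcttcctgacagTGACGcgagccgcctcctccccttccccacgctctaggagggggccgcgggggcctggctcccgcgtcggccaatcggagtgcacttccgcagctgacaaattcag
Atf3: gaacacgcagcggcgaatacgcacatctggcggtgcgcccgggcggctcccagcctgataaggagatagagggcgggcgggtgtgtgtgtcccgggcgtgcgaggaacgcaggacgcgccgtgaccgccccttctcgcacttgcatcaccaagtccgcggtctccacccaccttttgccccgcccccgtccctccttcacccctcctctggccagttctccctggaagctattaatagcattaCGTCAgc
Fos holds TGACG 129 to 125 and 66 to 62 bases before its start and TATAAA 33 to 28 bases before it. Jun holds TGACATCA 45 to 38 bases before its start, Junb holds TGACG 106 to 102 bases before its start, and Atf3 holds TGACG on the opposite strand 7 to 3 bases before its start. Fosb, at chr7:19310046-19310295, also holds TGACG, 60 to 56 bases upstream, while none of the motifs was in the windows of Fosl2 and Jund. The Fosl2 window, chr5:32136222-32136471, lies inside its GENCODE gene, which starts at 32135801. The Atf3 window likewise lies inside its GENCODE gene (191170296 to 191218039). The Jund window, chr8:70697489-70697738, lies upstream of the GENCODE start at 70698949 but does not reach it. Bases directly before the GENCODE starts of Fosl2, Atf3 and Jund were not searched. Of 32851 mouse promoters of the same length, 17.8% hold TGACG, 2.93% TGACATCA and 12.4% TATAAA on either strand. TGACTCA (4.46% of promoters), TGACGTCA (1.55%), the E-box CACGTG (6.02%), the EGR site GCGTGGGCG (0.536%) and the CArG box of serum response factor (1.47%) were searched on both strands and are not in these 7 windows. A match describes letters only, and no match says nothing about the factor. Fosl1, Egr1 and Myc were not in the promoter table.

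Atf3, which is induced by amino-acid shortage, endoplasmic reticulum stress and wounding, was at 11.6, 4.54 and 15.0 CPM in WT, 7.27, 6.09, 5.96 and 14.7 CPM in PIK3CA mutants and 4.11, 12.0, 21.7 and 13.9 CPM in HER2 mutants, which overlapped. Double mutants were at 10.7, 55.1, 45.3, 12.4 and 15.4 CPM. Only replicates 2 and 3 lay above all other samples, and the other 3 stayed within the range of HER2 mutants. The log2 fold change was 1.42 (SE 0.63, adjusted p = 0.158) against WT and 1.71 (SE 0.57, adjusted p = 0.218) against PIK3CA mutants, and neither was called. Without double mutants 2 and 3 these were 0.31 (adjusted p = 0.785) and 0.59 (adjusted p = 0.637).

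Genes that act with ATF3 in the stress response were called where Atf3 was not. Of 12 tested, 6 rose and 0 fell in double mutants against WT (Asns, Atf4, Ddit3, Ddit4, Sesn2 and Vldlr), with a median log2 fold change of 0.97. That is 50% of the list, beside 11.8% of all genes. Against PIK3CA mutants 5 rose (Asns, Atf4, Chac1, Sesn2 and Trib3), with a median of 0.81, where 0.672% of all genes were called. Without double mutants 2 and 3, 7 rose against WT (median 1.13) and 5 against PIK3CA mutants (median 0.80), with Atf5 and Chac1 in place of Ddit3 against WT. The shares of all genes called there were 9.01% and 0.889%. In HER2 mutants 3 rose against WT (Ddit4, Sesn2 and Vldlr), in PIK3CA mutants 2 (Ddit4 and Vldlr), and between double and HER2 mutants and in the interaction 0 were called. The shares of all genes in these comparisons were, in that order, 10.4%, 4.52%, 2.5% and 1.06%. Leaving out double mutants 2 and 3, 2 rose in double against HER2 mutants (Atf5 and Chac1), and in the interaction 3 were higher (Atf5, Chac1 and Trib3) and 1 lower (Vldlr). Of all genes, 4.7% and 4.17% were called there. Asns, asparagine synthetase, was at 13.0 to 19.8 CPM in PIK3CA mutants, 26.5 to 64.3 CPM in HER2 mutants and 18.2 to 86.0 CPM in double mutants, and was higher than in PIK3CA mutants by 1.48 in HER2 mutants (SE 0.37, adjusted p = 0.0366) and by 1.70 in double mutants (SE 0.36, adjusted p = 0.0492). Chac1, a glutathione-degrading enzyme induced by ATF4, was 2.46 to 4.57 CPM in PIK3CA mutants and 4.48 to 33.1 CPM in double mutants (log2 fold change 2.43, SE 0.53, adjusted p = 0.0496). Ddit3, which encodes the stress factor CHOP, was at 6.54 to 11.8 CPM in WT and 18.2 to 178 CPM in double mutants (log2 fold change 2.70, SE 0.76, adjusted p = 0.0295), and was not among the genes called without double mutants 2 and 3. Ddit4, an inhibitor of mTORC1 signalling, rose by 1.43 in PIK3CA mutants, 1.28 in HER2 mutants and 2.21 in double mutants against WT. Of 13 heat-shock genes that also respond to tissue handling, Hspe1 alone was called, higher in HER2 mutants (0.51, adjusted p = 0.0360) and in double mutants (0.76, adjusted p = 0.00242) against WT. Each time that is 7.69% of the list, beside 10.4% and 11.8% of all genes. The median log2 fold change of the 13 was 0.01 in HER2 and 0.54 in double mutants, beside 0.03 and 0.01 over all genes. In double mutants 6 of 13 had an unadjusted p under 0.05 against WT (edgeR), beside 27.1% of all genes. Without double mutants 2 and 3 the median there was 0.15, beside -0.02 over all genes.

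Textbook AP-1 target genes changed in both directions. Of 20 tested, 5 rose and 3 fell in double mutants against WT, 3 rose and 2 fell in HER2 mutants, and 3 rose and 1 fell in PIK3CA mutants, with medians of 0.35, 0.28 and 0.36. The shares called were 40%, 25% and 20%, beside 11.8%, 10.4% and 4.52% of all genes. With double mutants 2 and 3 left out, 4 rose and 2 fell in double mutants and the median was -0.25, where 9.01% of all genes were called. Ccnd1 (cyclin D1) and Lif rose in all 3 mutants against WT. Areg, the EGF receptor ligand amphiregulin, was at 1.28 to 1.63 CPM in WT and 0.864 to 2.75 CPM in PIK3CA mutants, and at 3.21 to 10.9 CPM in HER2 mutants and 6.38 to 15.9 CPM in double mutants. It rose by 2.24 in HER2 mutants against WT (SE 0.45, adjusted p = 0.00613) and by 2.38 in double against PIK3CA mutants (SE 0.39, adjusted p = 0.0148). Itga2, an integrin subunit, rose against WT by 1.76 in PIK3CA mutants (SE 0.36, adjusted p = 0.0102) and by 2.24 in double mutants (SE 0.36, adjusted p = 0.00101). In HER2 mutants its log2 fold change of 1.08 was not called (SE 0.36, adjusted p = 0.0656). Mmp13, a collagenase, fell in all 3 mutants, with log2 fold changes of -4.76 in PIK3CA mutants (SE 1.02, adjusted p = 0.0129), -4.85 in HER2 mutants (SE 1.03, adjusted p = 0.00877) and -3.95 in double mutants (SE 0.90, adjusted p = 0.00972). Its WT levels ran from 7.97 to 153 CPM, and it is also expressed by fibroblasts, whose markers were lower in the mutants too. The part of those cells was not tested. Of 16 other AP-1 and related bZIP genes tested, Jdp2, a repressor that pairs with JUN, rose in double mutants against WT (17.8 to 25.2 against 38.8 to 47.0 CPM, log2 fold change 1.02, SE 0.25, adjusted p = 0.0144).

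In PIK3CA and double mutants, single samples were highest or lowest of their genotype for most of the 10 genes. PIK3CA mutant 4 was the highest of its genotype for 9 of 10 genes, all but Egr1. Double mutant 1 was the lowest of its genotype for 9 of 10, all but Fosl2, and the highest values of double mutants were all in replicate 2 (6 genes) or replicate 3 (4 genes). HER2 mutant 1 was the lowest of its genotype for 7 of 10. WT samples showed no such order, with each replicate highest for 2 to 4 genes.

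**Figure D5:**
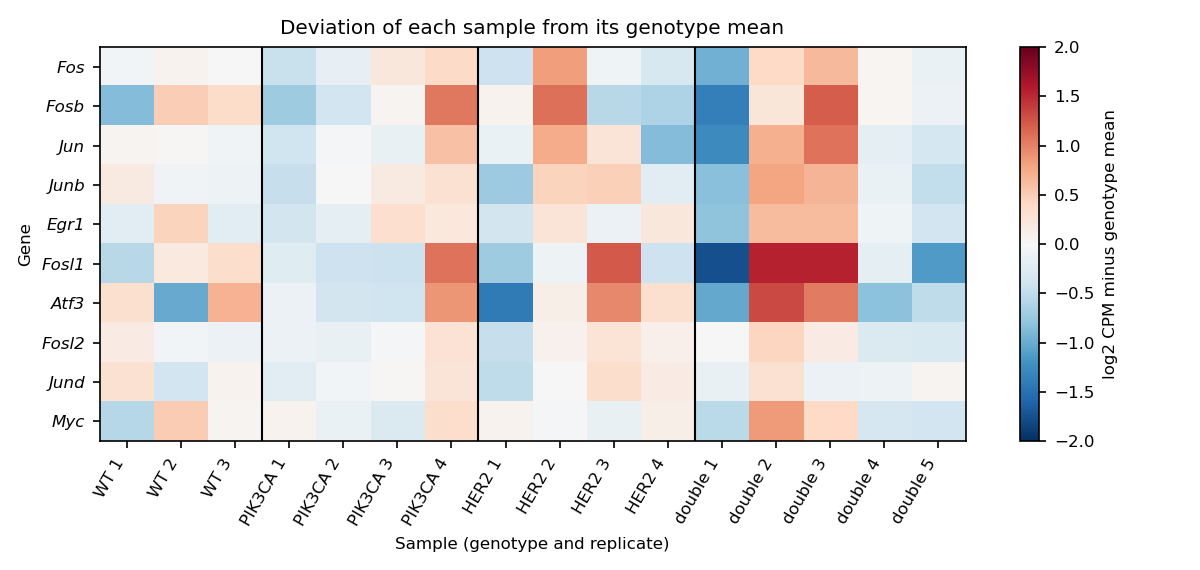
Deviation of each sample from the mean of its genotype (colour, log2 CPM) for the 10 genes (rows) in the 16 samples (columns). PIK3CA mutant 4 and double mutants 2 and 3 are above their genotype mean for most genes, and double mutant 1 has the lowest value of its genotype for 9 of 10 genes.

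By likeness of log2 CPM over the 16 samples, among 11575 genes with a mean log2 CPM of at least 1, Egr1 was nearest to Irx2 (r = 0.90) and Zfp217 (r = 0.89), Myc to Uck2 (r = 0.92) and Hk2 (r = 0.91), and Fosl1 to Apaf1 (r = 0.96) and Tbc1d1 (r = 0.94). Jun was nearest to Zbtb7a (r = 0.94) and Zfp36l1 (r = 0.94), and Junb to Rela (r = 0.94) and Heca (r = 0.93). Fosl2 and Atf3 had Dusp8, a phosphatase of MAP kinases, among their 2 nearest genes (r = 0.91 for both). These values share genotype and library scaling, and the nearest of many genes is high by selection.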

How the data were processed

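RNA of 16 organoid samples was extracted with a column kit and made into libraries with a SMARTer mRNA-seq kit, per the labels' protocols. The submitters' processing notes name bcl2fastq 2.20, STAR 2.0.4b, featureCounts 1.4.5 of Subread, DESeq2 1.33.5 and mm10; strandedness and annotation are not given in the sources used here. The authors deposited whole-number read counts per Ensembl gene, with no normalization, and a table of normalized signal. Each deposited signal value equalled the count divided by one factor per sample, and that table served only an alternative test.

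Of 55774 entries, 287 repeats of an identifier were dropped. Counts were tested with edgeR 4.0.16 in R 4.3.3 (filterByExpr, TMM factors, glmQLFit and glmQLFTest, genotype as the only factor, all 16 samples in a single fit), with Benjamini-Hochberg adjustment over the 24252 genes tested. The SE is the absolute log2 fold change divided by the square root of F. The script was tested on simulated data. CPM used TMM factors, log2 CPM a prior count of 2, and CPM per kb the exon length of GENCODE M21 (GRCm38). Alternatives were DESeq2 1.42.0, limma 3.58.1 on log2 of the signal plus 1, other scalings, no filter, a GC and length offset, a replicate block, only the genotypes compared, and leaving out samples.

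The members and the 9 gene lists were chosen with earlier results of these data known, so neither is independent evidence. From each list the rule named, per pair of genotypes, up to 2 called genes with the largest log2 fold change and a mean log2 CPM of at least 1. Other list genes, such as Egr3, are named as parts of small counts and were chosen after their values were seen, as was leaving out double mutants 2 and 3 together. A list gene chosen by this rule is left out of the text.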

Additional observations from a re-analysis of the deposited data

Results flagged for a closer look

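Fosl1 in PIK3CA mutant 4 was at 3.18 CPM, far from the other 3 PIK3CA mutants, and the gap took 0.929 of the group's range (95% critical value of Dixon's test, 0.829). Atf3 in the same sample was at 14.7 CPM, with a gap of 0.849 of the range. These were 2 of 30 groups checked, and chance alone gives about 1 in 20.

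Jund lay below the WT mean in every PIK3CA mutant, while every double mutant lay above the HER2 mutant mean. The test of that difference, the interaction, was 0.72 on the log2 scale and missed the threshold (edgeR, adjusted p = 0.235). Egr1 lay above the WT mean in every HER2 mutant, while every double mutant lay below the PIK3CA mutant mean, with an interaction of -1.61 (edgeR, adjusted p = 0.0861).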

How the results depend on the processing

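No log2 fold change of a member that was called, or had an unadjusted p under 0.05, turned sign in 358 values under alternatives: 322 kept their side of the threshold, 20 lost it and 16 gained it. Members called in HER2 against PIK3CA mutants fell from 2 to 1 with upper-quartile scaling and ranged from 0 to 2 when one sample was left out. DESeq2 called 3 in HER2 mutants against WT (edgeR 1), 3 in double against PIK3CA mutants (edgeR 0) and 1 in the interaction (edgeR 0). In double mutants against WT, 2 members became 1 with only the genotypes compared, and 0 without double mutants 2 and 3. Without those samples, chosen after seeing the data, 1 member was called in double against HER2 mutants, 1 in double against PIK3CA mutants and 2 in the interaction. Leaving out one sample gave 0 to 2 in double mutants against WT, 0 to 1 in PIK3CA mutants against WT, 1 to 2 in HER2 mutants against WT and 0 to 1 in the interaction. The cause of these moves was not tested. Fosl1 has 31 to 66 counts per WT library, which limits its precision.

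Same-numbered samples correlated in their deviations from the genotype means at 0.0711 to 0.273 in HER2 and double mutants (4 pairs) and at -0.163 to 0.149 in other pairs of genotypes, so the numbers were not taken to pair samples. The replicate block with the GC and length offset called 4 members in double mutants against WT, and the block alone left every count of called members within 1.5 times. Over all genes the replicate block moved the calls from 2518 to 1625 in HER2 mutants against WT, from 606 to 118 in double against HER2 mutants, from 163 to 19 in double against PIK3CA mutants, from 1069 to 552 in HER2 against PIK3CA mutants and from 257 to 35 in the interaction. With the GC and length offset added to the block these were 1925, 117, 11, 578 and 80.

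DESeq2 called 1814 genes in PIK3CA mutants against WT (edgeR 1096), 1652 in double against HER2 mutants, 613 in double against PIK3CA mutants, 2127 in HER2 against PIK3CA mutants and 928 in the interaction. With only the genotypes compared there were 4136 in PIK3CA mutants against WT, 541 in HER2 mutants against WT, 37 in double against HER2 mutants, 364 in double against PIK3CA mutants and 534 in HER2 against PIK3CA mutants. Without double mutants 2 and 3 there were 1125 in double against HER2 mutants and 998 in the interaction. The GC and length offset moved the median of all genes from -0.03 to 0.11 in PIK3CA mutants, from 0.03 to 0.12 in HER2 mutants and from 0.01 to 0.15 in double mutants against WT, and the genes higher from 362 of 1096 to 748 of 1401, from 1153 of 2518 to 1821 of 2916 and from 1220 of 2850 to 2393 of 3653. It gave 94 calls in double against PIK3CA mutants, and 115 of 306 higher in the interaction (125 of 257 without it). Upper-quartile scaling gave 191 of 632 higher in double against HER2 mutants (249 of 606 with TMM). Leaving out one sample gave 396 to 1043 calls in PIK3CA, 733 to 2693 in HER2 and 1173 to 2961 in double mutants against WT, 256 to 975 in double against HER2 mutants, 17 to 143 in double against PIK3CA mutants, 427 to 1166 in HER2 against PIK3CA mutants and 54 to 382 in the interaction.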
